A study of Mus musculus with 8 samples.

Results

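The 48 genes described here encode the proteins that copy DNA and the enzymes and regulators that prepare cells for it. They were the rows of the deposited count table whose gene symbol was on a list of 48 DNA replication and S phase genes. Every symbol matched 1 row, so 48 of the 50578 rows were taken, and all 48 passed the filter on low counts that left 15154 genes in the test.

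The study treated mouse embryonic fibroblasts (MEFs), a primary culture of connective tissue cells, with small molecules chosen by computer to push them towards a liver cell state. The cells were wild-type, came from mid-gestation C57BL/6J embryos from which heads, limbs and internal organs had been taken away, and were used at early passage. RNA-seq was performed on untreated MEFs, labelled Control, and on MEFs given carbidopa (an inhibitor of aromatic L-amino acid decarboxylase), CHIR-99021 (an inhibitor of the kinase GSK3) or LY-364747 (this is the spelling of the labels, while the methods name LY-364947, an inhibitor of the TGF-beta receptor), each at 10 µM and with 2 libraries per group. The labels call the treated samples hepatic-like cells. Neither the length of treatment before RNA was taken nor a vehicle in the untreated cultures was given in the sources used here.

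Replication is prepared in G1 phase, when the origin recognition complex with Cdc6 and Cdt1 loads the ring-shaped MCM helicase onto DNA. At the start of S phase, the kinase bound by cyclin E and other kinases switch the helicase on with Cdc45 and the GINS complex. Primase, the polymerases and the sliding clamp Pcna then copy both strands. Many of these genes are known targets of E2F transcription factors, and their mRNA is highest around the G1/S boundary. In bulk samples such as these, fewer cells in S phase and less RNA per cell cannot be told apart.

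The libraries held 15039566 to 20504338 counted reads. The labels do not say whether the 2 libraries of a group came from separate cultures, so p-values measure only the spread between these libraries. The carbidopa pair stood apart from the others in how far its libraries differed, with a chi-square per gene of 36.9 between replicates, where the other pairs gave 4.44 to 9.59. Over the 48 genes the median absolute log2 ratio between replicates was 0.20 for carbidopa and 0.11 to 0.18 for the other groups. Library composition differed too: the normalization factors were 0.880 and 0.895 in MEF and 1.03 to 1.06 in the treated libraries. All 12 fibroblast markers were detected in each library. Their summed level was 41943 and 42242 CPM (reads scaled to library size and composition) in MEF and 10060 to 13642 CPM in the treated libraries. With each treatment 10 of the 12 were lower than in MEF and 1 was higher. Of 12 hepatocyte markers, 6 to 8 were at 0 in each library and none passed the filter. Alb and Afp, which define the hepatocyte lineage, were among the markers that failed it. Summed epithelial markers were low, at 3.23 and 4.24 CPM in MEF and 9.82 to 21.5 CPM in the treated libraries. Of 7 listed, 3 were tested, and 3 were higher than in MEF with CHIR-99021, 1 with carbidopa and 1 with LY-364747. Endothelial markers summed to 11.3 to 19.6 CPM. Of 6 listed, 3 were tested, and 2 were lower than in MEF with CHIR-99021, 1 with carbidopa and 1 with LY-364747. The 48 genes together made up 772 and 810 CPM in MEF, 952 and 967 CPM with carbidopa, 934 and 955 CPM with LY-364747 and 736 and 740 CPM with CHIR-99021. On this scale the CHIR-99021 libraries were the lowest of the 8, and the carbidopa and LY-364747 libraries lay above MEF. The order of CHIR-99021 and MEF rests on the normalization factors. Without them the 48 genes held 10886 of 15039566 and 11959 of 17635923 reads in MEF. With CHIR-99021 they held 12775 of 16807175 and 12748 of 16816370 reads, a larger share than in MEF.

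Macrophage markers, which belong to a dividing cell type that such cultures can hold, moved with the treatments. Of the 16 listed, none was at 0 in 7 of the libraries and 1 was at 0 in CHIR-99021 replicate 2, and their summed level was 1273 and 1325 CPM in MEF, 416 and 434 CPM with carbidopa, 312 and 323 CPM with LY-364747 and 101 and 109 CPM with CHIR-99021. With CHIR-99021 15 of the 15 tested were lower than in MEF, and with carbidopa and LY-364747 14 were. Their part in the results below was not tested.

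The regulatory sequence in front of these genes is shown first. RefSeq promoters of GRCm38.p6, running from 250 bases before the transcription start to 50 after it, were found for 38 of the 48 genes. The words TTTCCCGC, TTTGGCGC, TTTCGCGC and TTTGCCGC, which spell the textbook E2F site, were searched on both strands. Of the 38 genes, 16 held at least 1 such word (42.1%), against 704 of all 27025 genes in the table (2.60%). A CCAAT box, counted on both strands and before the start alone, stood in 23 of the 38 (60.5%) and in 37.5% of all genes. These windows are printed because their genes moved in opposite directions with CHIR-99021: Mcm3, Mcm6 and Rfc3 were higher than in MEF, and Cdc6, Clspn and Uhrf1 were lower. Capitals mark the word or its reverse complement, and each sequence reads 5′ to 3′ on the strand of the gene.
Mcm3, chr1:20820276-20820303, minus strand: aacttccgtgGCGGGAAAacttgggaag
Mcm6, chr1:128359735-128359762, minus strand: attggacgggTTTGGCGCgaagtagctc
Rfc3, chr5:151651191-151651218, minus strand: tttcgcgctcGCGGGAAAactctactgt
Cdc6, chr11:98908003-98908030, plus strand: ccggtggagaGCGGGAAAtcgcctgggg
Clspn, chr4:126556991-126557018, plus strand: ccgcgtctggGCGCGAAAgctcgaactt
Uhrf1, chr17:56304118-56304145, plus strand: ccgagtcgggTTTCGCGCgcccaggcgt

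The word began 20 bases into the transcript in Mcm3, 47 bases before the start in Mcm6, at base 1 of the transcript in Rfc3, 138 bases before the start in Cdc6, 22 bases into the transcript in Clspn and 185 bases before the start in Uhrf1. Uhrf1 has 2 RefSeq starts, and its word lies before the downstream one, inside the gene as annotated in GENCODE from chr17:56303321. The window of its upstream start held 0 words. The Cdc6 word also lies inside the GENCODE gene, which begins at chr11:98907801. Mcm3, Mcm6 and Rfc3 held more than 1 word in the window, and in Mcm6 and Mcm5 neighbouring words overlapped. Longer stretches are printed for the genes with the largest falls with CHIR-99021, E2f2 and Rrm2, and for the gene with the largest rise, Mcm2. They end before the transcription start, and capitals mark a CCAAT box on either strand.
E2f2 promoter, chr4:136172024-136172273, plus strand: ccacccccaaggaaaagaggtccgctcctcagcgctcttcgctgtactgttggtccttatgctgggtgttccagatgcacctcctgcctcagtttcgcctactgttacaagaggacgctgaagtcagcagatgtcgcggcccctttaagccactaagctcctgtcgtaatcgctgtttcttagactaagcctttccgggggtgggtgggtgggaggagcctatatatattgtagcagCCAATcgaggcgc
Rrm2 promoter, chr12:24708004-24708240, plus strand: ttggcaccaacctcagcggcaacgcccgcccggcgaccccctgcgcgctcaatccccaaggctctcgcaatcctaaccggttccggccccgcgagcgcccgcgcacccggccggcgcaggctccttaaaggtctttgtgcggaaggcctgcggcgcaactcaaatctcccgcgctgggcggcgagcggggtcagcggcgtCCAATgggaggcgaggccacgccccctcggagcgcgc
Mcm2 promoter, chr6:88898781-88899030, minus strand: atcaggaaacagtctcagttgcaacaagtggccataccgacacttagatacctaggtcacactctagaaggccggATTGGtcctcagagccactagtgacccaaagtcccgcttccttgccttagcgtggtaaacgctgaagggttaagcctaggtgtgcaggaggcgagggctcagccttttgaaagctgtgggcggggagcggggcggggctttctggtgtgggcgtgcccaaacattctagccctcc

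Each of these stretches held 1 CCAAT box, and no E2F word lay in the windows of Rrm2 and Mcm2, while that of E2f2 held 1, after the start. A second RefSeq start of E2f2 lies downstream. Of the 16 genes with a word, 4 were lower and 3 higher with CHIR-99021 than in MEF, and of the 22 with a promoter and no word, 4 were lower and 1 was higher. The median log2 fold changes were -0.14 and -0.22, and the difference between these medians was not tested.

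Untreated MEFs and each treatment were compared first, to see how the replication genes stood after exposure to the molecule. The 48 genes did not move as a block. With CHIR-99021, 10 of 48 were lower than in MEF (20.8%) and 5 were higher (10.4%). Of all 15154 genes tested, 20.1% were lower and 18.7% were higher, so the share that fell was near the background. Their median log2 fold change was -0.16, beside 0.04 for all genes. With carbidopa, 13 of 48 were higher (27.1%, background 18%) and 1, Rrm2, was lower (2.08%, background 19.7%), with a median of 0.31 beside 0.04. With LY-364747, 9 were higher (18.8%, background 13.7%) and 1, again Rrm2, was lower (2.08%, background 17.2%), with a median of 0.23 beside 0.03. Genes higher than MEF in all 3 treatments were Mcm2, Mcm3, Mcm4, Mcm6 and Rfc3 (10.4%, background 8.60%). In either direction 15 of the 48 were called with CHIR-99021 (background 38.8%), 14 with carbidopa (background 37.7%) and 10 with LY-364747 (background 31.0%). All 3 comparisons use the same MEF libraries. Calls were made with the quasi-likelihood test of edgeR at a Benjamini-Hochberg adjusted p under 0.05 over all genes. The calls that held with each of the 8 libraries left out were Mcm2, Mcm3, Rrm1, Rrm2, Ccne2 and Uhrf1 with CHIR-99021, Mcm3, Mcm4, Rfc3 and Rrm2 with carbidopa and Mcm3, Mcm4, Mcm7 and Rfc3 with LY-364747, and every other call against MEF was lost without at least 1 library. Without MEF replicate 1 and without CHIR-99021 replicate 1 the CHIR-99021 falls numbered 5 and 4. The CHIR-99021 rises numbered 2 without MEF replicate 2 and 3 without MEF replicate 1, CHIR-99021 replicate 1 or LY-364747 replicate 1. The carbidopa rises numbered 6 and 5 without MEF replicate 1 and 2, and 13 without carbidopa replicate 1, and without carbidopa replicate 2 there were 19 rises and 3 falls, where 3995 and 4001 of all 15838 genes then tested rose and fell. The LY-364747 rises were fewer without any 1 of the MEF, LY-364747 or CHIR-99021 libraries. Calls over all genes tested were also fewer without either MEF library. For CHIR-99021 they were fewer without CHIR-99021 replicate 1, and for LY-364747 without any LY-364747 or CHIR-99021 library. With library totals in place of the normalization factors, the median of all genes moved up by 0.22 to 0.25, and 11, 28 and 26 of the 48 genes were higher with CHIR-99021, carbidopa and LY-364747, beside 5115, 5542 and 4232 of all 15154 genes.

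**Figure D1:**
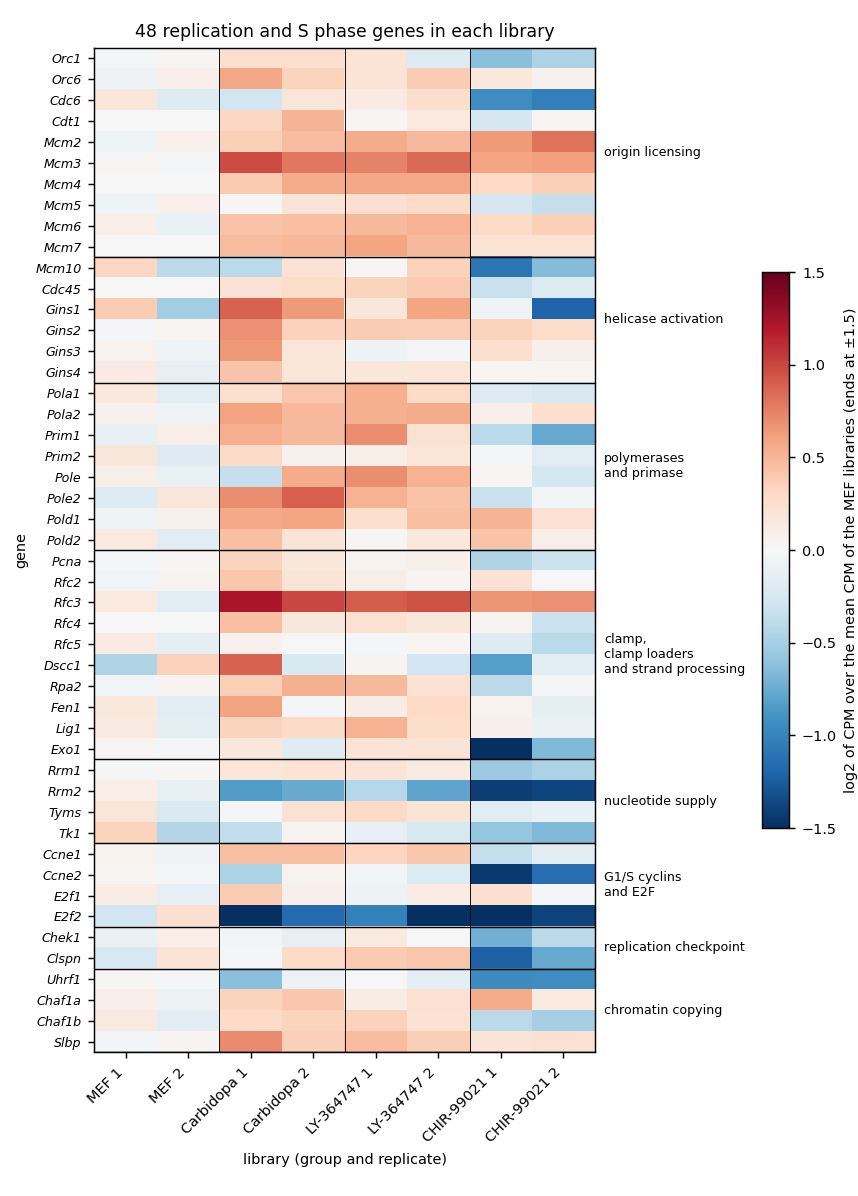
Heat map of the 48 genes (rows, grouped by role) in the 8 libraries (columns, group and replicate), coloured by log2 of CPM over the mean CPM of the MEF libraries, with the scale ending at ±1.5. Mcm2, Mcm3, Mcm4, Mcm6, Mcm7 and Rfc3 are red in all 6 treated libraries, while the blue of Cdc6, Exo1, Rrm1, Ccne2, Clspn and Uhrf1 is deepest in the CHIR-99021 columns.

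**Figure D2:**
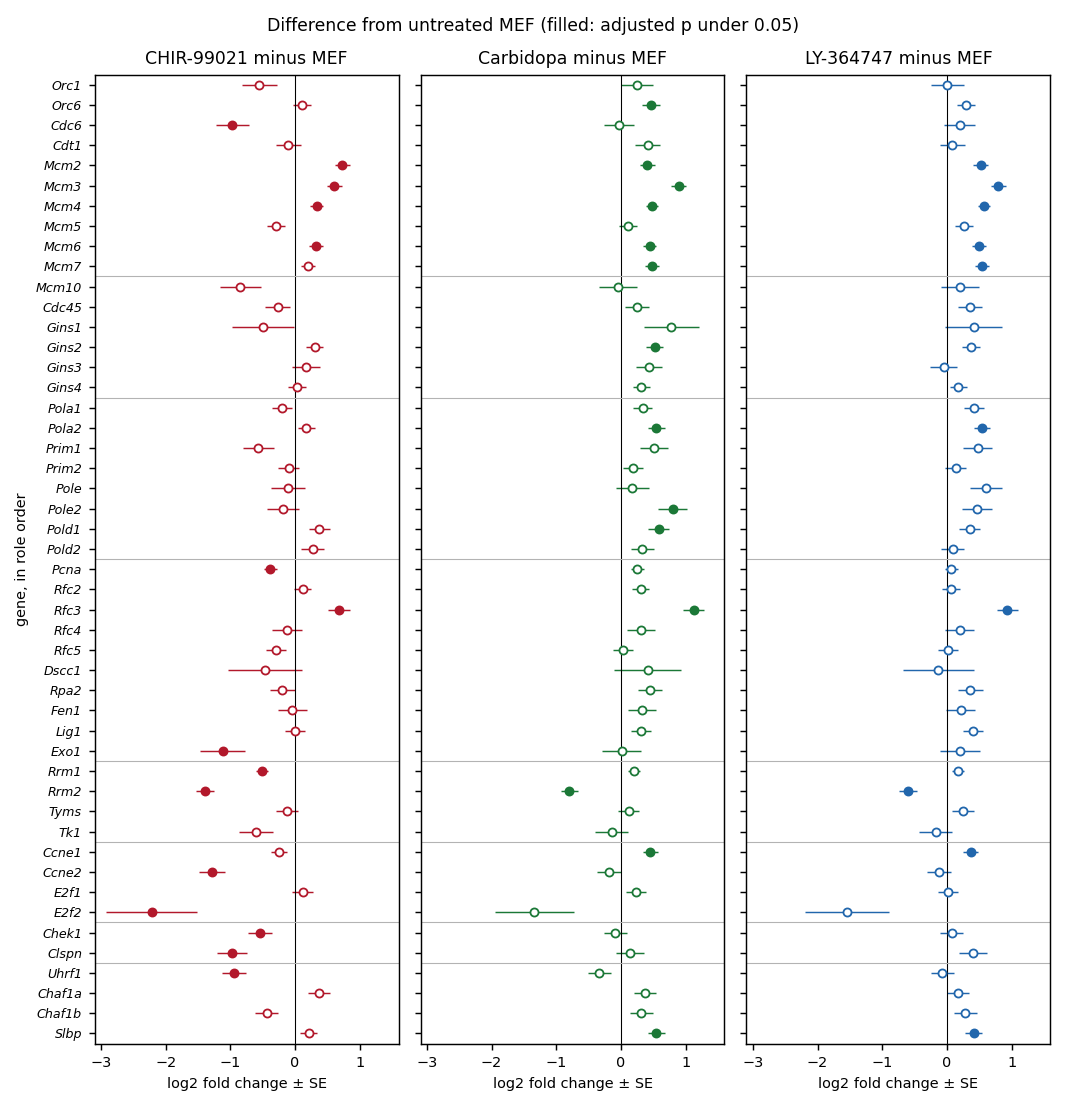
Log2 fold change from MEF of each of the 48 genes with CHIR-99021 (left), carbidopa (middle) and LY-364747 (right). Bars are standard errors of the fit (2 libraries a group) and filled points passed the test: 15 with CHIR-99021, 14 with carbidopa and 10 with LY-364747.

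Origin licensing held 4 of the 5 rises with CHIR-99021, which is 4 of its 10 genes (40%, background 18.7%). The MCM ring is made of Mcm2 to Mcm7, and 5 of its 6 genes were higher with carbidopa and with LY-364747, and 4 with CHIR-99021. Mcm2 measured 24.1 and 26.3 CPM in MEF, 32.2 and 34.7 with carbidopa, 37.0 and 35.4 with LY-364747 and 39.3 and 44.2 with CHIR-99021. All 6 treated libraries lay above both MEF libraries, and the log2 fold changes were 0.41 ± 0.11 (SE; adjusted p = 0.0186), 0.52 ± 0.11 (adjusted p = 0.00598) and 0.73 ± 0.11 (adjusted p = 0.000682). The carbidopa call on Mcm2 was lost without either MEF library and in DESeq2, and the LY-364747 call without MEF replicate 1 or LY-364747 replicate 1. Mcm3 measured 21.1 and 20.5 CPM in MEF, 41.0 and 36.2 with carbidopa, 35.0 and 37.4 with LY-364747 and 31.4 and 32.0 with CHIR-99021. Its order of treatments was the reverse of that of Mcm2, but neither gene passed the test between treatments. Mcm4, at 14.9 CPM per kilobase of exon in MEF the highest of the ring per length, measured 53.2 and 53.5 CPM in MEF, 70.2 and 78.4 with carbidopa, 79.6 and 79.0 with LY-364747 and 65.8 and 68.4 with CHIR-99021. Mcm6 measured 35.0 and 30.5, 44.0 and 44.8, 45.9 and 46.8, and 39.9 and 42.0 CPM in the same order. The CHIR-99021 rises of Mcm4 (0.33 ± 0.10, adjusted p = 0.0236) and Mcm6 (0.32 ± 0.11, adjusted p = 0.0368) were small. Both were lost in DESeq2, and leaving out libraries in turn ended the Mcm4 call for 5 of the 8 and the Mcm6 call for 6 of the 8. Mcm7 rose with carbidopa (0.48 ± 0.10) and LY-364747 (0.54 ± 0.10), and 12.6% of its exon bases lie in other genes, Ap4m1 and Cops6 among them, so part of its count may be theirs.

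Mcm5 stood apart from the other ring genes. It measured 11.6 and 12.7 CPM in MEF, 12.3 and 13.9 with carbidopa, 14.5 and 14.9 with LY-364747 and 10.2 and 9.58 with CHIR-99021, and passed the test in no comparison with MEF. The ratio of Mcm2 to Mcm5 reads within a library, which needs no scaling between libraries, was 2.08 and 2.07 in MEF, 2.61 and 2.50 with carbidopa, 2.55 and 2.38 with LY-364747 and 3.83 and 4.62 with CHIR-99021. The ratio was chosen after the values were seen.

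The loading factor Cdc6 went the other way. It measured 5.06 and 3.94 CPM in MEF, 3.67 and 5.08 with carbidopa, 4.88 and 5.38 with LY-364747 and 2.36 and 2.21 with CHIR-99021. Both CHIR-99021 libraries were below the other 6, and the log2 fold change from MEF was -0.97 ± 0.26 (adjusted p = 0.0128). That call was lost without MEF replicate 1 or without either CHIR-99021 library. Orc6, a subunit of the origin recognition complex, rose with carbidopa alone among the calls (0.46 ± 0.14, adjusted p = 0.0257), a call lost in DESeq2. Orc1 and Cdt1, the other loading factors on the list, passed no comparison with MEF (CHIR-99021 minus MEF -0.55 ± 0.27 and -0.10 ± 0.20).

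**Figure D3:**
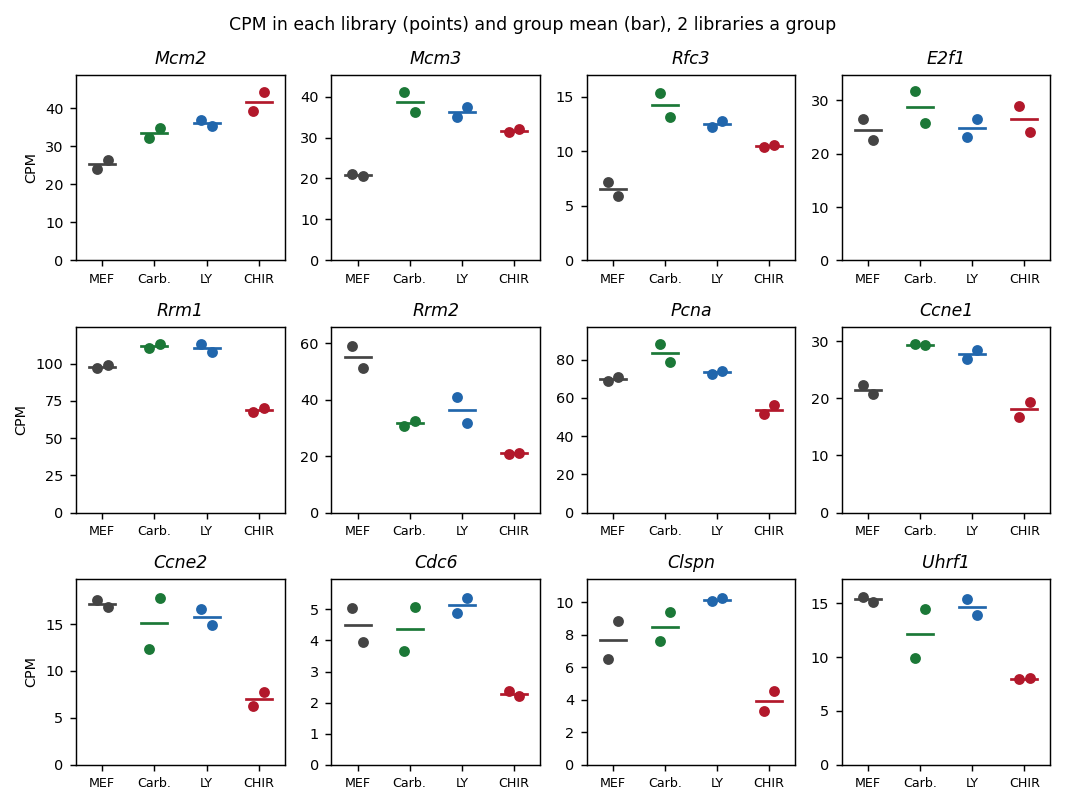
CPM of 12 of the genes in each library (points) with the group mean (bar), on axes that start at 0, for MEF, carbidopa (Carb.), LY-364747 (LY) and CHIR-99021 (CHIR), 2 libraries each. Mcm2, Mcm3 and Rfc3 lie above MEF in every treated library, Rrm2 lies below MEF in every treated library, and Rrm1, Pcna, Ccne1, Ccne2, Cdc6, Clspn and Uhrf1 have both CHIR-99021 points below all others.

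The helicase is activated by Cdc45, the 4 GINS subunits and Mcm10. None of these 6 genes passed the test with CHIR-99021 or LY-364747 against MEF, and Gins2 alone passed with carbidopa. Gins2 measured 19.8 and 20.5 CPM in MEF, 32.4 and 25.5 with carbidopa, 26.2 and 25.9 with LY-364747 and 25.3 and 24.3 with CHIR-99021. Of its exon bases, 67.3% lie in Gse1 on the opposite strand, and the counting is not stated to use strand. How far its count reflects Gins2 alone is thus not known. Gins4, with no such exon overlap, measured 18.9 and 15.9, 23.4 and 19.8, 19.6 and 19.7, and 17.7 and 17.8 CPM in the same order of groups. The carbidopa and LY-364747 libraries lay above both MEF libraries without passing the test, and the CHIR-99021 libraries lay between the MEF values. Mcm10 had the lowest fold change of the group with CHIR-99021, from 6.10 and 3.74 CPM in MEF to 2.30 and 3.13 CPM (-0.85 ± 0.32, adjusted p = 0.0612), and did not pass.

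Among the polymerases and primase, the calls against MEF were all rises. With carbidopa the rises were in Pola2, the regulatory subunit of polymerase alpha (0.55 ± 0.13), Pole2, a subunit of polymerase epsilon (0.80 ± 0.23), and Pold1, the catalytic subunit of polymerase delta (0.58 ± 0.16). With LY-364747 the rise was in Pola2 (0.54 ± 0.13). Each of these calls was lost without 1 or both of the MEF libraries. Pola2 measured 16.5 and 15.1 CPM in MEF, 24.1 and 22.1 with carbidopa, 22.8 and 23.2 with LY-364747 and 16.7 and 18.9 with CHIR-99021. With CHIR-99021 none of the 8 genes passed. The lowest of them, the primase subunit Prim1, went from 4.54 and 5.23 CPM to 3.68 and 2.90 CPM (-0.57 ± 0.24, adjusted p = 0.0827), and the highest, Pold1, from 8.03 and 8.78 CPM to 11.9 and 9.87 CPM (0.37 ± 0.16, adjusted p = 0.0973). Pola1, the catalytic subunit of polymerase alpha, measured 17.2 and 13.7 CPM in MEF, 18.2 and 20.6 with carbidopa, 22.3 and 19.0 with LY-364747 and 13.5 and 13.2 with CHIR-99021, and did not pass against MEF.

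Of the clamp, its loaders and the strand-processing genes, Pcna and Exo1 fell and Rfc3 rose with CHIR-99021. Pcna, the ring that holds polymerases on DNA, had the highest level per length of the 48 genes in MEF (29.1 CPM per kilobase of exon). It measured 68.9 and 71.0 CPM in MEF, 88.1 and 78.7 with carbidopa, 72.7 and 73.8 with LY-364747 and 51.3 and 56.1 with CHIR-99021, and fell with CHIR-99021 alone among the calls (-0.38 ± 0.10, adjusted p = 0.0144). That fall shrank to -0.17 and was lost with library totals, and was also lost without either MEF library or CHIR-99021 replicate 1. Also, 13.8% of its 75-base words occur in the pseudogene Pcna-ps2. Rfc3, a subunit of the complex that loads the clamp, rose in all 3: it measured 7.21 and 5.87 CPM in MEF, 15.3 and 13.2 with carbidopa, 12.2 and 12.7 with LY-364747 and 10.4 and 10.6 with CHIR-99021, with log2 fold changes of 1.12 ± 0.16, 0.94 ± 0.16 and 0.68 ± 0.17, the last of which was lost without MEF replicate 2. The carbidopa value was the largest rise of any of the 48 genes. The other loader subunits on the list, Rfc2, Rfc4 and Rfc5, passed no comparison with MEF. Rfc2 measured 16.2 and 17.2 CPM in MEF and 16.8 to 22.1 CPM in the treated libraries. Exo1, a nuclease of repair and replication, was counted with few reads: 44 and 49 in MEF, 77 and 61 with carbidopa, 66 and 69 with LY-364747 and 16 and 35 with CHIR-99021. Its fall with CHIR-99021 (-1.12 ± 0.34, adjusted p = 0.0256) was lost without CHIR-99021 replicate 1, without either MEF library and with library totals. Rpa2, Lig1, Fen1 and Dscc1 passed no comparison with MEF, and 84.2% of the exon bases of Fen1 lie in other genes.

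None of the 4 nucleotide supply genes rose against MEF. Ribonucleotide reductase, which makes deoxynucleotides, has a large subunit, Rrm1, and a small one, Rrm2, whose level limits it in S phase. Rrm2 measured 59.0 and 51.2 CPM in MEF, 30.8 and 32.6 with carbidopa, 40.8 and 31.8 with LY-364747 and 20.7 and 21.2 with CHIR-99021. Every treated library lay below both MEF libraries, and it was the only one of the 48 genes called lower in all 3 treatments (2.08%, background 12.8%), with log2 fold changes of -0.80 ± 0.13 (adjusted p = 0.00114), -0.60 ± 0.13 (adjusted p = 0.00654) and -1.39 ± 0.14 (adjusted p = 2.86e-05). The LY-364747 call was lost without MEF replicate 1 or LY-364747 replicate 2. Rrm1 measured 97.0 and 99.1 CPM in MEF, 111 and 113 with carbidopa, 113 and 108 with LY-364747 and 67.3 and 70.5 with CHIR-99021. It fell with CHIR-99021 alone among the calls (-0.51 ± 0.09, adjusted p = 0.00175), and the call held with each library left out. The ratio of Rrm2 to Rrm1 reads in a library, chosen after the values were seen, was 0.609 and 0.516 in MEF and 0.278 to 0.360 in the 6 treated libraries, among which the CHIR-99021 libraries (0.308 and 0.301) were not the lowest. Tyms and Tk1, which make and salvage thymidylate, did not pass. Tyms measured 14.4 and 11.0 CPM in MEF and 11.4 and 11.8 with CHIR-99021.

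The cyclins and E2F factors split within their own families. Ccne2 measured 17.5 and 16.8 CPM in MEF, 12.4 and 17.8 with carbidopa, 16.6 and 14.9 with LY-364747 and 6.28 and 7.78 with CHIR-99021. Its fall with CHIR-99021 (-1.29 ± 0.20, adjusted p = 0.000573) held with each library left out, though 17.4% of its exon bases lie in Ints8. Ccne1, the other cyclin E gene, measured 22.3 and 20.7 CPM in MEF, 29.5 and 29.3 with carbidopa, 26.9 and 28.5 with LY-364747 and 16.8 and 19.3 with CHIR-99021. Ccne1 rose with carbidopa (0.45 ± 0.12, adjusted p = 0.0132, lost without either MEF library) and LY-364747 (0.37 ± 0.12, adjusted p = 0.0396, lost with 6 of the 8 libraries left out in turn and in DESeq2) and did not pass with CHIR-99021 (-0.25 ± 0.12, adjusted p = 0.129). The ratio of Ccne2 to Ccne1 reads was 0.787 and 0.810 in MEF, 0.419 and 0.606 with carbidopa, 0.617 and 0.521 with LY-364747 and 0.373 and 0.402 with CHIR-99021. E2f1, an activator of the G1/S genes, measured 26.5 and 22.5 CPM in MEF, 31.8 and 25.8 with carbidopa, 23.2 and 26.5 with LY-364747 and 29.0 and 24.1 with CHIR-99021, groups that overlap. E2f2 was near the lower limit of counting, with 15 and 25 reads in MEF, 10 and 13 with carbidopa, 12 and 5 with LY-364747 and 1 and 9 with CHIR-99021. It had the largest fitted fall of the 48 genes with CHIR-99021 (-2.22 ± 0.71, adjusted p = 0.0302), which was -1.38 and lost without CHIR-99021 replicate 1 and was also lost without either MEF library.

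Both genes of the replication checkpoint fell with CHIR-99021. Clspn, the adaptor that brings the kinase Chek1 to stalled forks, measured 6.47 and 8.84 CPM in MEF, 7.58 and 9.38 with carbidopa, 10.0 and 10.2 with LY-364747 and 3.28 and 4.53 with CHIR-99021 (-0.98 ± 0.23, adjusted p = 0.00748). Chek1 measured 7.59 and 8.71, 7.91 and 7.46, 9.04 and 8.15, and 4.95 and 6.21 CPM in the same order (-0.55 ± 0.18, adjusted p = 0.0381). The Clspn call was lost without MEF replicate 2 or CHIR-99021 replicate 1, and the Chek1 call with 5 of the 8 libraries, in DESeq2 and with library totals. Neither passed with carbidopa or LY-364747.

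Of the genes that rebuild chromatin behind the fork, Uhrf1, which guides DNA methylation to newly made strands, measured 15.6 and 15.2 CPM in MEF, 9.93 and 14.5 with carbidopa, 15.4 and 13.9 with LY-364747 and 7.95 and 8.07 with CHIR-99021. Its fall with CHIR-99021 (-0.94 ± 0.19, adjusted p = 0.00288) held with each library left out, and 9.05% of its 75-base words are shared with Gm5648. Slbp, which binds the stem-loop of histone mRNA, measured 27.1 and 28.6 CPM in MEF, 45.6 and 35.8 with carbidopa, 38.3 and 36.1 with LY-364747 and 32.0 and 32.6 with CHIR-99021, and rose with carbidopa (0.55 ± 0.13, adjusted p = 0.00832) and LY-364747 (0.42 ± 0.13, adjusted p = 0.0346). The carbidopa call on Slbp was lost without MEF replicate 1, and the LY-364747 call was lost in DESeq2 and with 6 of the 8 libraries left out in turn. The subunits of the histone chaperone CAF-1 did not pass: Chaf1a measured 9.59 and 8.65 CPM in MEF and 13.4 and 10.1 with CHIR-99021 (0.37 ± 0.17, with 52.5% of its exon bases in Ubxn6), and Chaf1b had a log2 fold change of -0.44 ± 0.18.

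The treatments were then compared with each other at the shared concentration of 10 µM, to see whether the molecules left the replication genes at different levels. The genes called between CHIR-99021 and either other molecule were all lower with CHIR-99021. Against carbidopa, 13 of 48 genes were lower with CHIR-99021 (27.1%, background 8.08%) and 0 were higher (background 6.62%), with a median log2 fold change of -0.44 beside -0.00071 for all genes. Against LY-364747, 15 were lower (31.2%, background 7.69%) and 0 were higher (background 6.45%), with a median of -0.39 beside 0.0059. At an unadjusted p under 0.05, 28 and 24 of the 48 genes differed in either direction, beside 4460 and 4400 of all 15154 genes. DESeq2 called 0 of the 48 higher in both, beside 941 and 917 of all 15154 genes. The genes lower in both comparisons were Cdc6, Pola1, Prim1, Pcna, Exo1, Rrm1, Rrm2, Ccne1, Ccne2, Clspn and Chaf1b, which is 11 of 48 (22.9%, background 5.88%). The comparisons share the CHIR-99021 libraries. Pole2 and Rpa2 were lower against carbidopa alone among the calls, and Mcm5, Cdc45, Chek1 and Uhrf1 against LY-364747 alone among the calls.

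The smallest p against carbidopa belonged to Rrm1 (-0.70 ± 0.09, adjusted p = 0.000885), Pcna (-0.64 ± 0.10, adjusted p = 0.00277) and Ccne1 (-0.70 ± 0.12, adjusted p = 0.00349). Against LY-364747 it belonged to Rrm1 (-0.68 ± 0.09, adjusted p = 0.00109), Clspn (-1.38 ± 0.22, adjusted p = 0.00301) and Ccne2 (-1.16 ± 0.20, adjusted p = 0.00371). Rrm1 was called in both comparisons with each library left out. For 19 of the 48 genes both CHIR-99021 libraries lay below the other 6 (39.6%, background 12.6%). For 11 genes both MEF libraries lay below the other 6 (22.9%, background 23.1%), a share near the background. The number of calls depended on which libraries were kept. It fell in both comparisons without either CHIR-99021 library, without either LY-364747 library and without MEF replicate 1. Calls over all genes tested fell in the same fits. The medians of the 48 genes stayed between -0.46 and -0.35 with any library left out. A fit of the carbidopa and CHIR-99021 libraries alone gave 7 genes lower, beside 625 of all 14410 genes then tested.

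**Figure D4:**
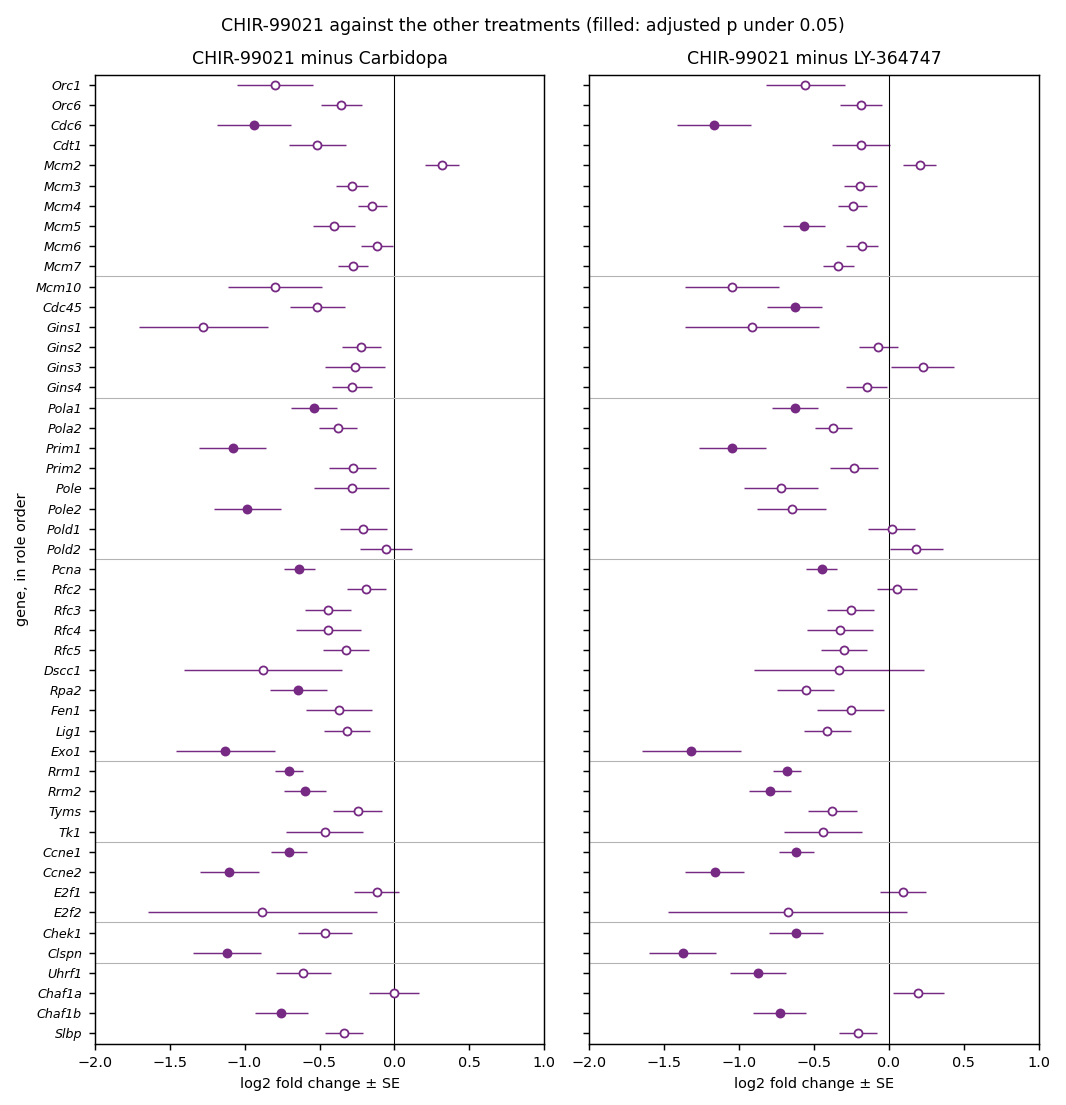
Log2 fold change of each of the 48 genes, CHIR-99021 minus carbidopa (left) and CHIR-99021 minus LY-364747 (right), with standard errors of the fit and filled points for adjusted p under 0.05. In both panels nearly all points lie left of 0 (47 and 41 of 48), and the filled points, 13 and 15, are all on that side.

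Between LY-364747 and carbidopa none of the 48 genes passed with edgeR (background 0% lower and 0.0132% higher). An unadjusted p under 0.05 was found for 1 of them, beside 1367 of all 15154 genes. The median was -0.04 and the fold changes ran from -0.55 to 0.43. In DESeq2 the count was 0 as well, beside 4 lower and 12 higher of all 15154 genes. Without carbidopa replicate 2 it was 5, Gins3, Pcna and Slbp lower and Pole and Uhrf1 higher with LY-364747, beside 1863 lower and 1953 higher of all 15838 genes then tested. For the abundant Rrm1 the difference was -0.02 ± 0.09.

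Genes near the 48 in the pathway were read in the same fit. Of 43 other replication genes, with CHIR-99021 6 were higher (14%, background 18.7%) and 3 lower (6.98%, background 20.1%) than in MEF. With carbidopa 6 were higher (14%, background 18%) and 1 lower (2.33%, background 19.7%). With LY-364747 6 were higher (14%, background 13.7%) and 1 lower (2.33%, background 17.2%). The medians were -0.09, 0.09 and 0.15. Dut, the enzyme that clears dUTP so that uracil is kept out of DNA, measured 8.03 and 8.26 CPM in MEF, 72.5 and 49.9 with carbidopa, 56.8 and 56.3 with LY-364747 and 29.3 and 31.4 with CHIR-99021 (2.91 ± 0.18, 2.79 ± 0.18 and 1.90 ± 0.18). It also had lower levels with CHIR-99021 than with carbidopa (-1.01 ± 0.16, adjusted p = 0.00234) and LY-364747 (-0.90 ± 0.16, adjusted p = 0.00455). The genes of this list lower with CHIR-99021 were Asf1b, a histone chaperone (-1.71 ± 0.34), Dck, which salvages deoxycytidine (-0.74 ± 0.18), and Samhd1, which degrades deoxynucleotides (-0.62 ± 0.11). Asf1b went from 5.43 and 5.23 CPM in MEF to 0.979 and 2.26 CPM.

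Of 16 E2F, RB and S phase kinase genes, 6 were lower (37.5%, background 20.1%) and 2 higher (12.5%, background 18.7%) with CHIR-99021 than in MEF. With carbidopa 4 were lower (25%, background 19.7%) and 1 higher (6.25%, background 18%). With LY-364747 1 was lower (6.25%, background 17.2%) and 1 higher (6.25%, background 13.7%). Ccna2, the cyclin of S and G2 phase, measured 22.0 and 23.7 CPM in MEF, 17.1 and 17.7 with carbidopa, 20.8 and 18.1 with LY-364747 and 5.18 and 6.09 with CHIR-99021 (-2.02 ± 0.15, adjusted p = 3.30e-06). The repressors E2f7 and E2f8 went opposite ways. E2f7 fell with CHIR-99021 (-1.17 ± 0.23), and E2f8 measured 8.92 and 8.45 CPM in MEF and 20.3 to 25.0 CPM in the treated libraries, a rise in all 3 (1.33 ± 0.15 with CHIR-99021). E2f4 was also higher with CHIR-99021 (0.42 ± 0.13).

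The 25 genes of G2 phase and mitosis were read last. With CHIR-99021 24 of 25 were lower than in MEF (96%, background 20.1%), with a median of -1.77. With carbidopa 12 of 25 were lower (48%, background 19.7%, median -0.45). With LY-364747 2 of 25 were lower (8%, background 17.2%, median -0.29). None was called higher. Mki67, the marker of cycling cells, measured 72.4 and 72.3 CPM in MEF, 31.3 and 44.3 with carbidopa, 61.0 and 49.7 with LY-364747 and 14.9 and 15.5 with CHIR-99021. Top2a, which untangles copied chromosomes, measured 50.6 and 52.1, 31.5 and 35.8, 41.1 and 40.8, and 12.3 and 15.3 CPM in the same order. Ube2c, an enzyme of mitotic exit, went from 8.70 and 9.61 CPM in MEF to 1.84 and 1.62 CPM with CHIR-99021. The ratio of the summed reads of the 25 G2/M genes to those of the 6 MCM ring genes within a library was 1.99 and 2.03 in MEF, 0.980 and 1.03 with carbidopa, 1.20 and 1.07 with LY-364747 and 0.472 and 0.489 with CHIR-99021. This ratio, chosen after the values were seen, was lower in every treated library than in MEF. Histone genes were taken by symbol alone, 70 in all, a class whose mRNA in general has no poly(A) tail and whose copies are near-identical. Their summed level was 326 to 389 CPM in 7 libraries and 506 CPM in carbidopa replicate 1. In each library 22 to 33 of the 70 were at 0. Hist1h2bc and Hist1h1c alone measured 120 and 83.5 CPM in MEF replicate 1, and 171 and 171 CPM in carbidopa replicate 1. The sum thus rests largely on few genes and does not describe the class.

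**Figure D5:**
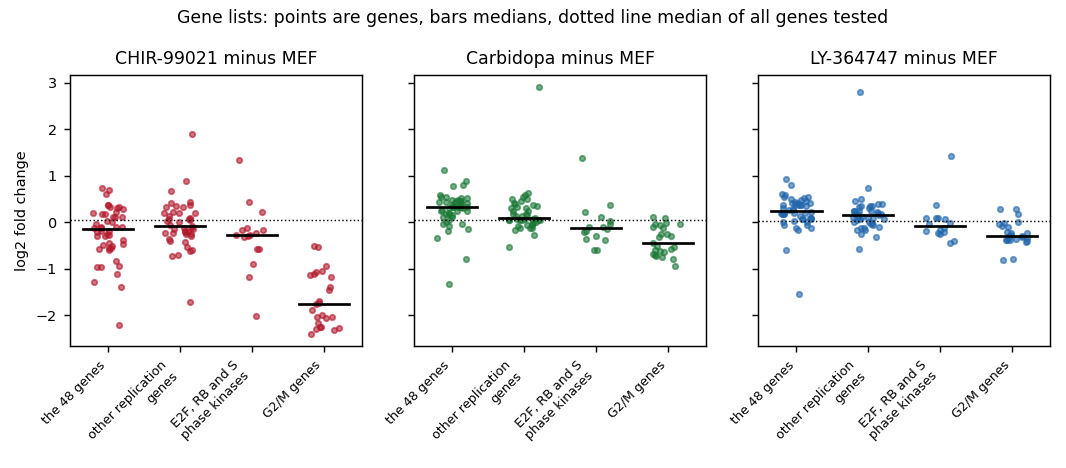
Log2 fold change from MEF with CHIR-99021, carbidopa and LY-364747 for the 48 genes, 43 other replication genes, 16 E2F, RB and S phase kinase genes and 25 G2/M genes (points, 1 a gene), with medians as bars and the median of all 15154 genes as a dotted line. The G2/M genes lie lowest in each panel, with medians of -1.77, -0.45 and -0.29, against -0.16, 0.31 and 0.23 for the 48 genes.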

How the data were processed

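RNA-seq counts were analysed for 8 libraries, 2 per group. The authors mapped reads to mm10 with STAR (version 2.4.2a) and counted them on genes with featureCounts, and they deposited raw counts per gene, with no normalization. The annotation release, the strand setting and the handling of multimapping reads were not given in the sources used here. The labels name a SMARTER mRNA-Seq kit and the methods a NEBNext kit.

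Counts were fitted in edgeR (version 4.0.16) with TMM factors, filterByExpr and the quasi-likelihood test, with all 8 libraries in 1 fit and group as the only term. P-values were adjusted over the 15154 genes tested, and genes with an adjusted p under 0.05 were called. CPM used library totals multiplied by the TMM factors. Levels per kilobase used the union of exons in GENCODE M21, where 99.6% of identifiers matched. The fit was tested on simulated data. The 48 genes and the other lists were chosen with earlier results of these data known. Within each role, values per library are given for the 2 genes with the highest mean CPM, those with the largest fall and the largest rise (or smallest fall) with CHIR-99021 against MEF, and any called against its group. Of other lists, the 3 genes with the smallest p in that comparison and any called against the list are named. Mcm3, Mcm5, Mcm7, Orc6 and other genes named beyond this were chosen after their values were seen. A count of 0 allows up to 3 reads, which is 0.140 to 0.223 CPM, and such limits cover counting error only. Alternatives were DESeq2 (version 1.42.0), RLE factors, other count filters, each library left out, a replicate block, and fits of 2 groups only.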

Additional observations from a re-analysis of the deposited data

How the results depend on the processing

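No called gene among the 48 changed direction under any alternative. Depth limits E2f2, with 1 and 9 reads with CHIR-99021. With 2 libraries per group, leaving out a library leaves an arm of 1, which was assumed to vary like the other groups. Over all genes tested, the number called changed as well when a library was left out. Over the 8 libraries left out in turn, the genes lower with CHIR-99021 than MEF numbered 4 to 11 and the genes higher 2 to 6, with a median of -0.21 to -0.062. With carbidopa 1 to 3 were lower and 5 to 19 higher, and with LY-364747 0 to 1 lower and 5 to 13 higher. CHIR-99021 minus carbidopa gave 2 to 18 lower and 0 to 1 higher, CHIR-99021 minus LY-364747 2 to 21 lower, and LY-364747 minus carbidopa 0 to 3 lower and 0 to 2 higher.

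DESeq2 called 3 genes higher with CHIR-99021 than MEF. With no filter on low counts, and in a fit of the compared groups alone, 2 were lower with LY-364747 than MEF, and that fit gave 14 higher and, for CHIR-99021 minus carbidopa, 7 lower. With library totals alone, an alternative chosen after seeing the data, 11, 28 and 26 genes were higher than MEF with CHIR-99021, carbidopa and LY-364747, and the medians were 0.058, 0.56 and 0.46, where the medians of all genes were 0.26, 0.29 and 0.25. The split of all genes with CHIR-99021 was then 5115 higher and 2217 lower. The share of promoters with an E2F word was 23.7% when bases after the start were left out, by construction a shorter window. Beyond this, the cause of these differences was not tested.

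Replicate deviations (replicate 1 minus replicate 2) correlated at 0.23 between carbidopa and CHIR-99021. LY-364747 correlated at -0.25 with carbidopa and at -0.26 with CHIR-99021, and the correlations with MEF ran from -0.07 to 0.12. To this extent carbidopa replicate 1, CHIR-99021 replicate 1 and LY-364747 replicate 2 deviated together. A block by replicate number does not adjust for this, and its source was not tested. With a replicate block, the genes lower and higher with CHIR-99021 than MEF were 9 and 4, and those lower than with carbidopa and LY-364747 were 11 and 13.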
